A study of Mus musculus with 6 samples.

Results

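CC chemokine ligands were examined in fibro-adipogenic progenitors (FAPs), the mesenchymal cells of skeletal muscle interstitium, by bulk RNA-seq. The 6 genes described are Ccl2, Ccl7, Ccl8, Ccl11, Ccl9 and Ccl5. They were taken by symbol from 16894 listed genes, among which 11 are CC ligand genes. The 6 were selected with their difference between senescent and control FAPs already known, so that difference is given as a description and no test is applied to it.

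Primary FAPs came from hindlimb muscles of male and female C57BL/6 mice of 3 to 6 months, sorted magnetically as cells negative for CD45, CD31 and α7-integrin and positive for SCA-1. All cells were cultured with serum and bFGF at low oxygen. Senescent FAPs (n = 3 libraries) received 20 μM etoposide, a topoisomerase II poison, for 48 h and then 5 days of normal medium. Control FAPs (n = 3) were non-senescent cells of the same kind. No source used here ties a library to an animal or culture, so p-values measure the spread between these libraries. The model is a DNA-damaged culture of cells sorted to lack CD45, the common leukocyte antigen.

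Libraries held 41412179 to 59912520 reads on genes. Values are CPM, read counts scaled to an effective library size, in which 1 read was worth 0.0167 to 0.0225 CPM. Control replicate 2 stood apart from the other control libraries, with more Mki67, a proliferation marker (247 CPM, against 125 and 101 in replicates 1 and 3), and more Spp1, the gene of osteopontin (2041 CPM, against 331 and 384). Member values resting on it are given with and without it. Replicate 1 of both groups stood apart in the FAP marker Thy1, at 489 CPM in control (41.3 and 61.6 in replicates 2 and 3) and 615 CPM in senescent FAPs (70.9 and 73.6), and senescent replicate 1 differed more from replicates 2 and 3 (chi-square per gene of 45.3 and 49.6) than those did from each other (14.9). In senescent FAPs the p21 gene Cdkn1a rose from 289.9 ± 40.5 to 1038 ± 21.4 CPM (SD, n = 3), and Lmnb1, of the nuclear lamina, fell from a range of 51.5 to 70.9 to one of 11.7 to 12.9 CPM. Over 14776 genes tested, 21.8% were higher and 24.3% lower in senescent FAPs at an adjusted p under 0.05 (limma), and the median log2 difference was -0.03.

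CC chemokines are small secreted proteins named for a pair of adjacent cysteines near their N terminus. They bind heparan sulphate on cell surfaces and matrix, and draw leukocytes by G protein-coupled receptors. The MCP group, to which Ccl2, Ccl7 and Ccl8 belong, attracts monocytes and other leukocytes, and eotaxin (Ccl11) attracts eosinophils. In injured muscle, recruited monocytes and macrophages clear debris and signal to FAPs and to muscle stem cells.

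The cysteine pair that gives the family its name is shown first, because it is what the 6 genes share in sequence. Each line is coding sequence from the GENCODE M21 transcript (GRCm38), read 5′ to 3′, with the 2 cysteine codons in capitals and 5 codons on either side in lower case.
Ccl2: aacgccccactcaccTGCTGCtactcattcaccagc
Ccl7: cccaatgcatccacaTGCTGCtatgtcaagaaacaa
Ccl8: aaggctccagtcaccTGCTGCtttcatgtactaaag
Ccl11: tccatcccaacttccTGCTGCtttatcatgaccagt
Ccl9: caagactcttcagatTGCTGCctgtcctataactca
Ccl5: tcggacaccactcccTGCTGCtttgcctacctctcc
All 6 genes spell the pair with the same 6 bases. The pair starts at codon 32 in Ccl8 and Ccl11, codon 33 in Ccl7 and Ccl5, codon 34 in Ccl2 and codon 57 in Ccl9. Over aligned coding bases, Ccl2 was 69.4% identical to Ccl7, 68.4% to Ccl11 and 67.5% to Ccl8, and the lowest identity of any pair was 54.6%, between Ccl11 and Ccl5. No stretch of 50 bases in the transcripts of Ccl2, Ccl7, Ccl8, Ccl11 or Ccl5 occurred in a transcript of another gene. In Ccl9, 1.97% of such stretches did, none of them in another chemokine ligand, so the ligands' reads can be told apart at that length.

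All 6 genes lie on chromosome 11 in 2 clusters (GRCm38). Ccl2 (chr11:82035571-82037453), Ccl7 (chr11:82045712-82047525), Ccl11 (chr11:82057823-82062955) and Ccl8 (chr11:82115185-82116799) follow one another on the plus strand. Ccl5 (chr11:83525778-83530518) and Ccl9 (chr11:83572919-83578636) lie on the minus strand of the second cluster. An annotated gene on the opposite strand, Gm17268, spans Ccl2 but shares 0 exonic bases with it and was not listed.

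The 4 ligands of the first cluster were higher in every senescent library than in any control library, and Ccl9 of the second cluster was lower. Separation of every library upward was seen for 26.5% of all genes tested and downward for 30.9%. Because the genes were selected on this contrast, nothing is read from this. Of the 6 genes, 5 passed the filter on low values. Ccl11 reached 0.5 CPM in only 1 control library, and so passed the filter through its senescent libraries, and Ccl5 did not pass.

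Ccl2 encodes MCP-1, the main ligand of Ccr2 and an attractant of inflammatory monocytes. In control replicates 1, 2 and 3 it measured 28.1, 63.8 and 37.1 CPM, against 205, 196 and 201 CPM in the senescent ones. The senescent libraries lay within 10 CPM of each other, whereas control replicate 2 was well above the other control libraries. Means were 43.0 ± 18.5 and 200.8 ± 4.27 CPM (SD, n = 3), a log2 difference of 2.29 (SE 0.26).

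Ccl7 encodes MCP-3, which also binds Ccr2. Control replicates 1, 2 and 3 held 48.0, 82.2 and 53.5 CPM, and senescent replicates held 241, 206 and 217 CPM. Replicate 2 was again the highest control library. The log2 difference was 1.88 (SE 0.19), and the means were 61.2 ± 18.4 and 221 ± 17.7 CPM.

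Ccl8 encodes MCP-2, which in the mouse acts through Ccr8. The control replicates gave 1.54, 8.92 and 1.36 CPM, in order of number, against 52.0, 48.1 and 40.4 CPM for senescent cells. Control replicates 1 and 3 held 69 and 76 reads and replicate 2 held 469, so counting error is small beside that gap. The means of 3.94 ± 4.31 and 46.8 ± 5.87 CPM differed by 3.84 on the log2 scale (SE 0.56).

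Ccl11 encodes eotaxin, a ligand of Ccr3. It was nearly off in control replicates 1 and 3, at 0.245 and 0.233 CPM (11 and 13 reads), and reached 2.03 CPM (107 reads) in replicate 2. Senescent replicates held 55.9, 44.6 and 40.7 CPM. The means were 0.838 ± 1.04 and 47.1 ± 7.93 CPM, a log2 difference of 5.40 (SE 0.45) and a 56.2-fold ratio of means, or 197-fold without control replicate 2. This was rank 1 of the rises over all genes tested, with Ccl8 at rank 9, Ccl2 at 114 and Ccl7 at 215. The ranks restate the contrast on which the genes were selected, so nothing is read from them. At such low control values the added constant matters, and the log2 difference of Ccl11 was 6.22 with 0.1 in place of 0.5.

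Ccl9 encodes MIP-1γ, a ligand of Ccr1, and moved the other way. Control replicates 1, 2 and 3 held 30.4, 10.8 and 19.4 CPM, and senescent replicates 7.03, 6.14 and 6.89 CPM. Here control replicate 2 was the lowest control library and so the nearest to the senescent level. The means of 20.2 ± 9.86 and 6.68 ± 0.477 CPM gave a log2 difference of -1.41 (SE 0.32).

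Ccl5 encodes RANTES, a chemokine best known from T cells. It had 0, 0 and 3 reads in the control libraries and 21, 12 and 17 reads in the senescent libraries, at most 0.417 CPM. The groups did not overlap, as was so upward for 26.5% of all genes tested. Ccl5 itself stayed below the filter and was left out of the fit. The pooled rate per effective library was 16.5 times higher in senescent FAPs, with an exact 95% interval of 5.33 to 82.7. The interval describes counting error in so few reads and is no test of the groups. It is a trace beside the first cluster.

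**Figure D1:**
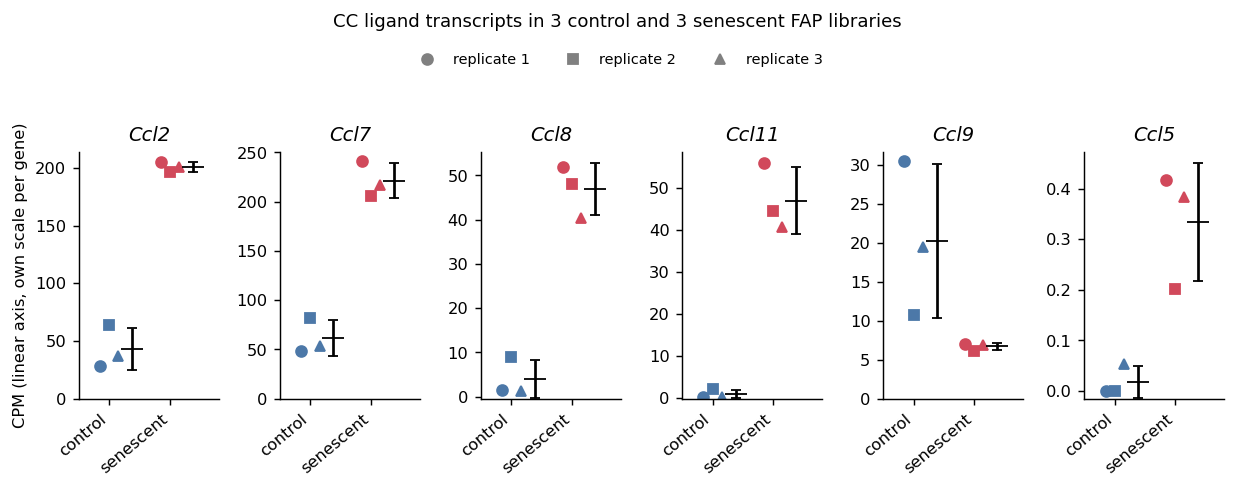
Each panel shows 1 gene in CPM on its own linear scale, with control libraries in blue, senescent libraries in red, marker shapes for replicates 1 to 3 and black bars for mean ± SD (n = 3). Ccl2, Ccl7, Ccl8 and Ccl11 are higher and Ccl9 is lower in all 3 senescent libraries, and control replicate 2 (square) is the control library nearest to the senescent level for these 5 genes.

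To compare genes with each other, CPM was divided by the length of all annotated exons of the gene. This length joins the exons of every transcript (801 bases for Ccl7, 1138 for Ccl2 and 3045 for Ccl9). A single transcript can be shorter, which would raise the gene's value, so the orders below hold for these lengths only. In senescent FAPs the order per kb was Ccl7 (276 ± 22.2 CPM per kb), Ccl2 (176 ± 3.75), Ccl8 (91.7 ± 11.5), Ccl11 (43.5 ± 7.32), Ccl9 (2.20 ± 0.157) and Ccl5 (0.347 ± 0.121). With these lengths, no neighbours in that order overlapped between libraries. In control FAPs Ccl7 (76.5 ± 23.0 CPM per kb) and Ccl2 (37.8 ± 16.3) also came first and did not overlap. Ccl8 (7.71 ± 8.44) and Ccl9 (6.63 ± 3.24) did not differ beyond their spread. That overlap came from control replicate 2, since in replicates 1 and 3 Ccl8 lay at 3.01 and 2.67 and Ccl9 above it at 6.37 CPM per kb or more. Ccl11 (0.774 ± 0.958) lay below the range of both. Ccl11 therefore passed Ccl9 between the control and senescent orders.

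The make-up of the 6 signals shifted toward Ccl8 and Ccl11. Together the ligands reached 108 to 168 CPM per control library and 502 to 561 CPM per senescent library. Ccl11 supplied 0.209% to 1.21% of that sum in control libraries and 8.04% to 9.97% in senescent ones. Ccl9 supplied 28.1%, 6.42% and 17.4% in control replicates 1, 2 and 3, but only 1.22% to 1.36% after senescence. Ccl7 stayed the largest share throughout, at 41.1% to 49.0%. These shares are of CPM and not per length, so they describe shifts between libraries and not molar amounts.

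**Figure D2:**
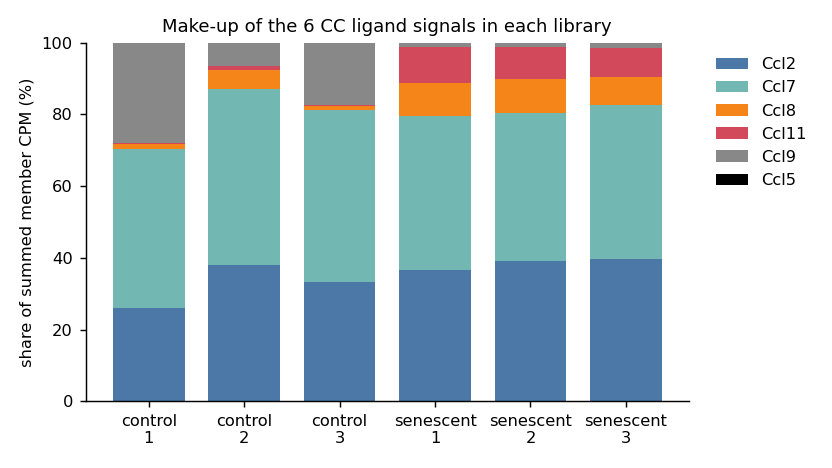
Stacked bars give the share of each gene in the summed CPM of the 6 ligands, in percent, for each of the 3 control and 3 senescent libraries. Ccl8 and Ccl11 widen and Ccl9 shrinks to 1.22% to 1.36% in the senescent libraries, and control replicate 2 already shows a smaller Ccl9 share (6.42%) than the other control libraries.

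Ratios between ligands of one library do not depend on its scaling. The CPM ratio of Ccl7 to Ccl2 was 1.71, 1.29 and 1.44 in control replicates 1, 2 and 3. It was lower in each senescent library, at 1.17, 1.05 and 1.08. Ccl11 to Ccl8 went from 0.159, 0.228 and 0.171 to 1.08, 0.927 and 1.01. These 2 ligands thus reached near parity in CPM in all 3 senescent libraries. Ccl9 to Ccl2 went from 1.08, 0.169 and 0.523 to 0.0343, 0.0313 and 0.0343.

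On the log2 scale Ccl2, Ccl7, Ccl8, Ccl11 and Ccl9 varied far more between control libraries than between senescent ones. For Ccl7, Ccl8 and Ccl11 this came from control replicate 2. In CPM the senescent SD was the larger one for Ccl8 and Ccl11. Control replicate 2 lay above its group mean by 0.65 for Ccl2, 0.46 for Ccl7, 1.51 for Ccl8 and 1.18 for Ccl11 on the log2 scale, and below it for Ccl9 (-0.76). In senescent libraries no deviation of these 5 genes was larger than that of Ccl11 in replicate 1 (0.26). Without control replicate 2, the log2 differences were 2.62 for Ccl2, 2.11 for Ccl7, 4.59 for Ccl8, 5.99 for Ccl11 and -1.79 for Ccl9, each larger in size than with it. The same library was high in Mki67 and Spp1, as given above, and the part of either in these deviations was not tested.

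**Figure D3:**
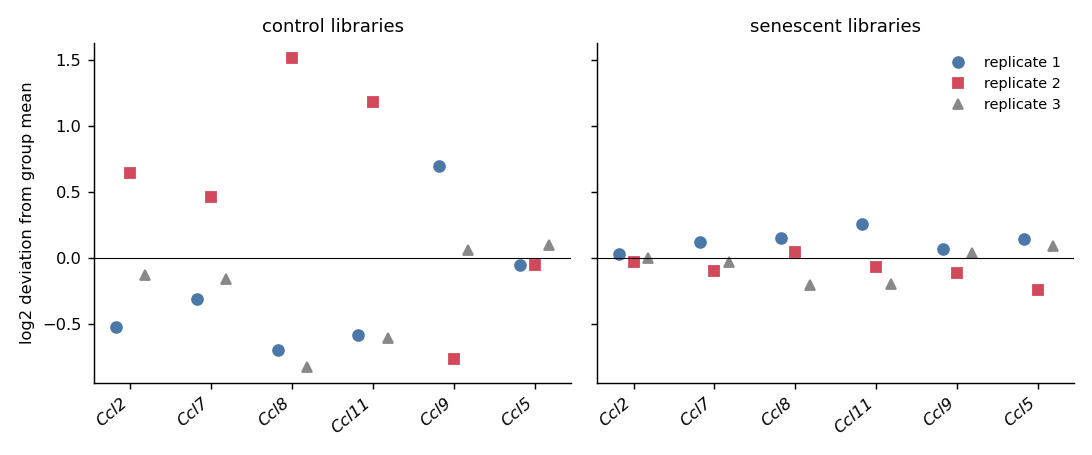
Points give the log2 deviation of each library from its group mean for the 6 ligands, in control (left) and senescent (right) libraries on 1 shared axis, with a colour and shape per replicate. Control replicate 2 is the highest point for Ccl2, Ccl7, Ccl8 and Ccl11 and the lowest for Ccl9 (-0.76), and senescent points lie close to 0.

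Genes around the 2 clusters were described by position, a choice made after the values were seen. Within 500 kb of the first cluster lie 6 other annotated genes, protein-coding or listed. Only Tmem132e among them was listed, at 0.141 ± 0.0505 CPM in control and 0.241 ± 0.0211 CPM in senescent FAPs. Ccl12 and Ccl1, the other CC ligands there, were not listed. Around the second cluster 16 of 30 other genes were listed, with log2 differences from -0.67 to 1.40 and a median of -0.04. Of these, Taf15 held 98.6 ± 10.6 CPM in control and 66.2 ± 3.79 CPM in senescent libraries. Ap2b1 held 273.7 ± 13.3 and 249.7 ± 4.66 CPM. Taf15, Ap2b1, Heatr6 and AI662270 were lower in every senescent library than in any control library. Rasl10b, Slfn2, Slfn10-ps, Mmp28, Synrg and Dusp14 were higher in every senescent library, and the log2 difference of 1.40 is that of Rasl10b. Such separation was seen upward for 26.5% and downward for 30.9% of all genes tested. Ccl6, Ccl3 and Ccl4, which adjoin Ccl9, were not listed.

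**Figure D4:**
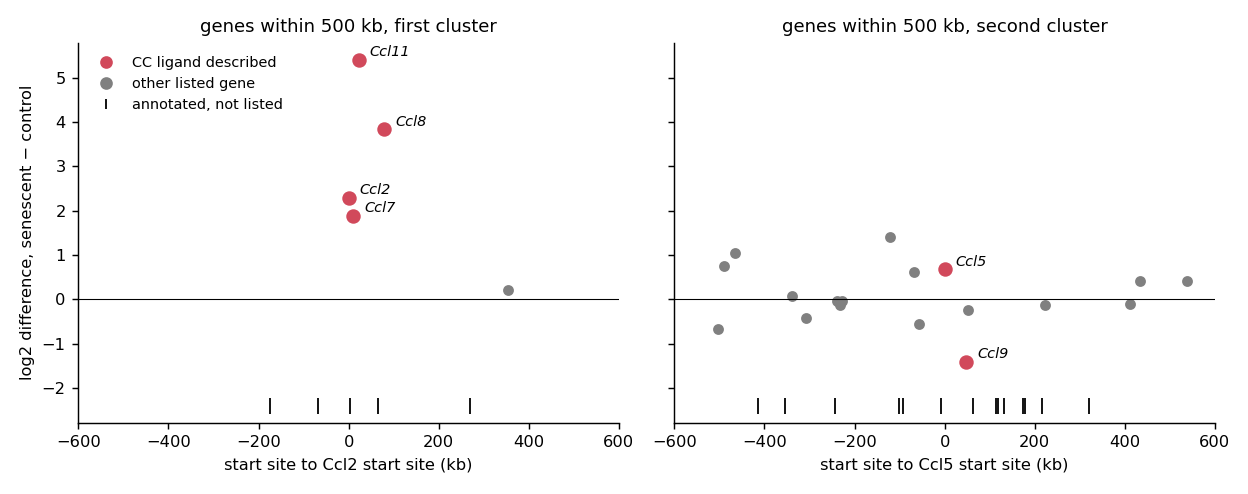
Each point is a listed gene within 500 kb of the first (left) or second (right) cluster, placed by the distance of its start site from that of Ccl2 or Ccl5 in kb, with the log2 difference between senescent and control FAPs on the vertical axis. Red points are the ligands described, grey points are other genes and ticks mark annotated genes that were not listed. The red points of the first cluster lie between 1.88 and 5.40, and the grey points of the second cluster between -0.67 and 1.40.

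Promoter sequence was at hand for 2 of the 6 genes, 1 that was higher in senescent FAPs (Ccl8) and 1 that was lower (Ccl9). The 250 bases before each RefSeq start site (GRCm38.p6) are shown 5′ to 3′ on the gene's own strand, with motif matches in capitals. They were searched on both strands for TATAAA, an NF-kB pattern (GGGNNNNNCC), an AP-1 pattern (TGANTCA), a C/EBP pattern (TTNNGNAA), an interferon response pattern (GAAANNGAAA) and 2 STAT patterns (TTCNNNGAA and TTCNNNNGAA).
Ccl8, chr11:82114935-82115184, plus strand: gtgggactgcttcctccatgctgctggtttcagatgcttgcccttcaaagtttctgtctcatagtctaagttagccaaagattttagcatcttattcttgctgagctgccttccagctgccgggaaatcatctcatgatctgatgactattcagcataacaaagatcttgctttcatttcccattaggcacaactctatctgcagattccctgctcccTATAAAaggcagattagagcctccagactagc
Ccl9, chr11:83578637-83578886, minus strand: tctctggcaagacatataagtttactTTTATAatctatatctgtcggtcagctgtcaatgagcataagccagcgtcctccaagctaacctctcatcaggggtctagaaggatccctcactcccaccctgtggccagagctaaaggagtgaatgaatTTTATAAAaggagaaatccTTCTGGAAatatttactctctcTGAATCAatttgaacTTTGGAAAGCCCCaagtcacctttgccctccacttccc
The Ccl8 window matched TATAAA alone, starting 32 bases before the start site, and 12.4% of 32851 promoter windows hold that motif. The Ccl9 window matched TATAAA starting 92 bases before the start site, and its reverse complement at 224 and 94 bases, the last overlapping the forward match. It also held 1 AP-1 match (53 bases before the start site; 6.75% of windows have 1 or more), 2 C/EBP matches (75 and 38 bases; 36.8%) and 1 NF-kB match on the opposite strand (35 bases; 45.8%), which overlaps the nearer C/EBP match. The interferon pattern (2.98% of windows) and the STAT patterns (7.02% and 5.85%) matched neither window. A match is a description of these letters and says nothing of binding.

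The other CC ligands stayed low. Of 18 further genes of the family, 5 were listed and 3 passed the filter, and 0 were past the threshold by limma, edgeR or DESeq2, while 2 had an unadjusted p under 0.05 (limma), as did 54.0% of all genes tested. Ccl25, a ligand of Ccr9, measured 2.69 ± 0.946 and 4.08 ± 0.750 CPM in control and senescent FAPs, with an adjusted p of 0.088. Without control replicate 2 it passed, and with library totals as the only scaling Ccl25 and Ccl27a both did. Ccl17 was again highest in control replicate 2, at 2.00 CPM against 0.469 and 0.592 CPM in replicates 1 and 3, and 0.248 to 0.457 CPM in senescent libraries.

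Apart from the scavenger Ackr3, the tested CC receptor genes stayed at or below 2.45 CPM in every library. Of 16 receptor genes 6 were listed and 4 tested, of which 2 were higher and 1 lower. The median log2 difference was 0.75 against -0.03 for all genes, of which 21.8% were higher and 24.3% lower. Ackr4, a scavenger of homeostatic chemokines, rose from 0.183 ± 0.110 to 1.38 ± 0.501 CPM (adjusted p = 0.00215, limma). Ccr7 fell from 1.74 ± 0.752 to 0.388 ± 0.224 CPM. Ccr1, a receptor of the Ccl9 and Ccl5 proteins, held 0.446, 1.05 and 0.215 CPM in the control libraries against 1.11, 2.26 and 2.45 CPM in the senescent ones (adjusted p = 0.0213), and was no longer past the threshold without control replicate 1, control replicate 3, senescent replicate 2 or senescent replicate 3. Ackr4 and Ccr1 passed the filter on low values through their senescent libraries and Ccr7 through its control libraries, so these calls are a description. With genes under 2 CPM left out, 0 receptors were called, since only Ackr3 then remained in the fit. Ackr3, which takes up Cxcl12, held 64.1 ± 27.0 and 72.5 ± 7.93 CPM and did not pass. Ccr2, Ccr3 and Ccr8, receptors of the first cluster's ligands, were not listed.

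Other chemokine families moved in both directions. Of 10 tested CXC and CX3C ligands, 4 were higher and 2 lower (all genes tested: 21.8% and 24.3%), with a median of 0.35. Cxcl16, a membrane-bound ligand of Cxcr6, rose from 5.19 ± 0.672 to 15.9 ± 0.740 CPM (adjusted p = 0.000252, limma), and Cxcl10, an interferon-induced ligand of Cxcr3, from 0.114 ± 0.0710 to 2.51 ± 1.47 CPM. Cxcl2, a neutrophil attractant, rose from a range of 0.0951 to 0.179 CPM to one of 0.569 to 0.810 CPM. Cxcl2, Cxcl9 and Cxcl10 lay under 0.5 CPM in every control library. They passed the filter on low values through their senescent libraries, so their calls are a description. Cx3cl1, the membrane-tethered fractalkine, fell from 102.8 ± 13.9 to 43.2 ± 8.96 CPM (adjusted p = 0.000868). Cxcl12, which retains stem and immune cells, measured 291.8 ± 132 and 138 ± 37.8 CPM, and its call (adjusted p = 0.0462) was lost when any library other than control replicate 2 or senescent replicate 1 was left out.

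Genes of the routes known to drive CC ligand genes were tallied from lists by role. Of all genes tested 21.8% were higher and 24.3% lower, and a count near those shares says nothing of its list. The NF-kB route had 5 of 24 genes higher and 2 lower, with a median of 0.04. Ikbkg, the regulatory subunit of the IκB kinase, rose from 42.0 ± 2.78 to 78.3 ± 3.19 CPM (adjusted p = 0.000276, limma). Map3k14, the kinase of the non-canonical branch, rose from 17.2 ± 1.93 to 25.1 ± 1.68 CPM. The feedback inhibitor Tnfaip3 (14.0 ± 1.48 and 19.6 ± 2.01 CPM) and Irak1 (62.0 ± 5.19 and 78.1 ± 5.96 CPM) passed, but Tnfaip3 not without senescent replicate 1 or 2, and Irak1 not without control replicate 3 or senescent replicate 1 or 2. The transcription factor subunits Nfkb1 (77.2 ± 4.45 and 77.5 ± 1.20 CPM) and Rela (60.4 ± 6.27 and 68.1 ± 3.45 CPM) did not pass. The subunit gene Rel fell from 6.79 ± 0.622 to 4.93 ± 0.267 CPM (adjusted p = 0.0312, limma). The IL-1 receptor gene Il1r1 fell from 152.6 ± 51.7 to 74.9 ± 26.6 CPM (adjusted p = 0.0315, limma). Neither Rel nor Il1r1 was called without control replicate 3 or without senescent replicate 2. The list's 7 calls became 3 without control replicate 3 and 2 without senescent replicate 2, and with library totals as the only scaling 11 genes were called, all higher.

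The interferon route had 8 of 22 tested genes higher and 4 lower (all genes tested: 21.8% and 24.3%), with a median of 0.18. The calls at its head were large. Irf7, a transcription factor of the type I interferon response, rose from 2.46 ± 0.965 to 27.6 ± 5.86 CPM, a log2 difference of 3.28 (SE 0.25, adjusted p = 0.000198, limma). The RNA sensors Ifih1 and Ddx58 rose from 3.30 ± 0.357 to 18.1 ± 3.12 CPM and from 23.4 ± 1.24 to 63.7 ± 5.99 CPM. The DNA-sensing pathway genes Tmem173 (51.8 ± 9.44 to 32.0 ± 2.40 CPM) and Mb21d1 (4.36 ± 0.459 to 2.24 ± 0.548 CPM) fell.

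The list for the IL-4 and IL-13 route, a known inducer of eotaxin, also holds Il33, Tslp and the decoy receptor gene Il13ra2. It had 3 of 9 genes higher and 1 lower (all genes tested: 21.8% and 24.3%), with a median of 0.76. Il33, an alarmin of stromal cells, measured 1.07, 2.45 and 3.61 CPM in control libraries, against 22.4, 26.8 and 35.4 CPM in senescent ones. The groups did not overlap, as was so upward for 26.5% of all genes tested. The log2 difference of Il33 was 3.40 (SE 0.34, adjusted p = 0.000395, limma). Il13ra2, a decoy receptor for IL-13, rose from 0.172 ± 0.0541 to 1.91 ± 0.155 CPM, and Il4ra, the shared signalling receptor, from 278.5 ± 59.8 to 464.8 ± 27.9 CPM. Il13ra2 and Arg1 passed the filter on low values through their senescent libraries, so their calls are a description. Socs3, a suppressor of cytokine signals, fell from 61.6 ± 15.5 to 27.5 ± 1.41 CPM. Stat6 itself held 144 ± 13.4 and 139.6 ± 3.01 CPM, and Jak3 5.82 ± 2.25 and 5.81 ± 0.236 CPM. Il13ra1 held 49.5 ± 10.7 and 35.5 ± 7.65 CPM. Stat6, Jak3 and Il13ra1 did not pass. With the replicate number as a block, 5 were higher and 2 lower (7 calls), as also without control replicate 2, the added genes being Tslp, Arg1 and Il13ra1.

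AP-1 and C/EBP genes had 2 of 13 higher and 4 lower (all genes tested: 21.8% and 24.3%), with a median of -0.22. Fos fell from 221 ± 27.8 to 150.0 ± 16.6 CPM (adjusted p = 0.00723, limma), and the C/EBP gene Cebpd from 9.18 ± 5.06 to 2.50 ± 0.403 CPM. Junb was at 97.0 ± 19.0 and 69.0 ± 6.69 CPM, and Maff at 99.8 ± 13.5 and 140 ± 25.2 CPM. The list's 6 calls became 2 without control replicate 1 and 1 without control replicate 3. They became 3 without senescent replicate 1 and 1 without senescent replicate 2 or 3. The list's median stayed negative in these fits. Genes called higher over the whole table also became fewer in them, at 2130 to 2888 against 3218. Fos kept its call throughout these.

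RNA-binding proteins and nucleases that act on chemokine and cytokine transcripts, some shortening and some lengthening their life, were also listed. Of 12 genes 1 was higher and 3 lower (all genes tested: 21.8% and 24.3%), with a median of -0.19. Hnrnpd, which encodes the AU-rich element binding protein AUF1, fell from 63.3 ± 6.65 to 29.9 ± 1.36 CPM (adjusted p = 0.000281, limma), and Khsrp, a decay factor, from 93.4 ± 7.76 to 55.5 ± 7.27 CPM. Ybx1, an RNA-binding protein, fell from 445.8 ± 27.1 to 317.8 ± 15.7 CPM, and Rc3h1, the gene of roquin-1, rose from 54.7 ± 3.81 to 72.5 ± 2.66 CPM. Zfp36, the gene of the destabilising protein tristetraprolin, held 65.0 ± 5.78 and 71.7 ± 12.9 CPM, and Elavl1, the gene of the stabilising protein HuR, 78.1 ± 8.85 and 64.0 ± 5.20 CPM, and neither passed. With the replicate block 2 were higher and 4 lower, and with library totals as the only scaling 4 were higher and 3 lower.

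Genes that trim or hold chemokines outside the cell had 10 of 29 higher and 7 lower, with a median of 0.23. The shares over all genes tested were 21.8% and 24.3%. The matrix metalloproteinases Mmp3 and Mmp13, which can cleave MCP proteins, rose from 3.54 ± 2.02 to 48.3 ± 13.7 CPM and from 0.280 ± 0.350 to 5.40 ± 0.899 CPM (adjusted p = 0.000562 and 0.000377, limma). Mmp13 passed the filter on low values through its senescent libraries, so its call is a description. Sulf2, which removes sulphate from heparan sulphate, rose from 118 ± 27.6 to 260.5 ± 8.07 CPM. Glce, an epimerase of heparan sulphate synthesis, fell from 112.5 ± 15.7 to 62.9 ± 1.37 CPM. Without senescent replicate 3 the 17 calls became 11.

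**Figure D5:**
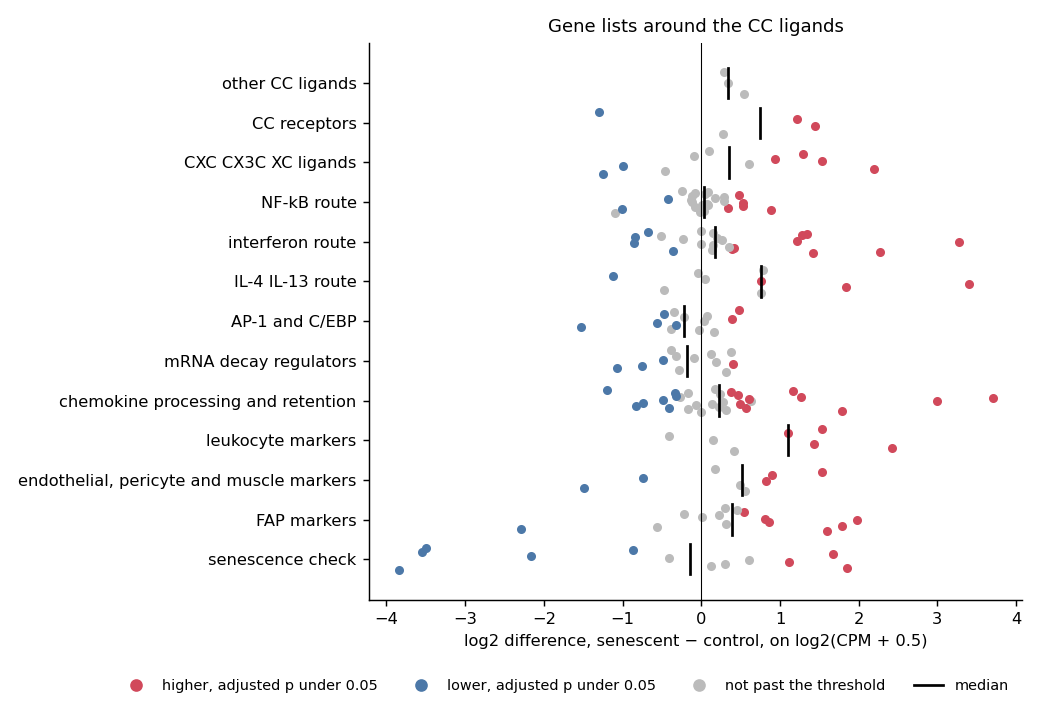
Each point is a tested gene of a list, placed by its log2 difference between senescent and control FAPs on log2(CPM + 0.5), red or blue where the adjusted p was under 0.05 and grey otherwise, with a black bar at the list's median. Il33 at 3.40, Irf7 at 3.28 and Mmp3 at 3.70 lie farthest to the right, and the NF-kB list is centred near 0 (median 0.04).

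The cell type of the libraries was checked against markers. All 14 FAP marker genes were listed, of which 6 were higher and 1 lower, with a median of 0.39. The shares over all genes tested were 21.8% and 24.3%. Pdgfra held 192 ± 58.4 and 218 ± 35.7 CPM. Thy1, high in replicate 1 of both groups, passed with the replicate block and under no other alternative run. Ly6a, the gene of SCA-1, rose from 372 ± 132 to 625 ± 76.0 CPM, a call lost when any senescent library was left out. Cd34 rose from 22.5 ± 3.97 to 70.1 ± 17.4 CPM, Gsn from 821 ± 100.4 to 1489 ± 22.6 CPM and Lum from 0.535 ± 0.390 to 3.39 ± 0.216 CPM, while Col1a1 fell from 15545 ± 5576 to 3116 ± 876 CPM. Lum passed the filter on low values through its senescent libraries, so its call is a description. Among 12 senescence and proliferation genes, 3 were higher and 5 lower, with a median of -0.14, and 5 were higher and 6 lower with the replicate block.

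Leukocytes, the main source of several of these ligands in tissue, were looked for by 30 markers. Of these 11 were listed and 7 tested, of which 4 were higher and 3 did not pass, with a median of 1.11. Over all genes tested 21.8% were higher and 24.3% lower. Lyz2 (1.77 ± 0.288 to 6.06 ± 0.690 CPM), Cd68 (1.47 ± 0.350 to 4.81 ± 0.867 CPM), Itgam (0.0223 ± 0.0387 to 0.631 ± 0.178 CPM) and Cd53 (1.98 ± 1.67 to 11.4 ± 2.74 CPM) rose. Itgam passed the filter on low values through its senescent libraries, so its call is a description. Those that did not pass were Csf1r (6.74 ± 0.573 and 7.56 ± 0.489 CPM), Cd14 (2.53 ± 0.442 and 3.53 ± 0.200 CPM) and Fcgr3. Fcgr3 was at 1.18 ± 0.231 CPM in control and 0.801 ± 0.427 CPM in senescent FAPs. The summed level of the list was 15.3 to 18.3 CPM in control and 32.4 to 38.8 CPM in senescent libraries. Ptprc, the gene of CD45, and the macrophage markers Adgre1, Tyrobp, C1qa, C1qb and C1qc were not listed. The part of leukocyte RNA in the ligands' values was not tested. In bulk libraries a change in the number of cells of a type and a change in RNA per cell cannot be told apart. Of endothelial, pericyte and muscle markers 11 of 16 were listed and 8 tested, with 3 higher and 2 lower, a median of 0.52 and summed levels of 71.9 to 81.7 and 67.7 to 81.2 CPM. The endothelial marker Pecam1, which likewise passed the filter through its senescent libraries, rose from 0.706 ± 0.289 to 1.70 ± 0.152 CPM. Kdr fell from 4.05 ± 0.686 to 2.20 ± 0.282 CPM. The pericyte marker Rgs5 rose from 1.32 ± 0.563 to 4.70 ± 1.10 CPM and the muscle gene Acta1 fell from 27.9 ± 9.48 to 9.34 ± 2.24 CPM. Itga7, the gene of the α7-integrin that the sorted cells were to lack, rose from 11.1 ± 1.69 to 20.2 ± 4.05 CPM (adjusted p = 0.00771, limma).

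The genes whose levels over the 6 libraries followed each ligand most closely were found by Pearson's r on log2(CPM + 0.5), as a description over libraries that fall in 2 groups. Clu was nearest to both Ccl2 (r = 0.999) and Ccl7 (r = 0.999), followed by Mapre3 and Rbks. P4htm and Tbc1d8 were nearest to Ccl8, and Gsn and Snora2b to Ccl11. Zbtb8a and Cass4 were nearest to Ccl9, with log2 differences of -0.58 and -1.69. Cstad and Kbtbd4 were nearest to Ccl5.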

How the data were processed

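Libraries were made with a stranded mRNA kit, and the submitters' processing notes name mm10, edgeR 3.10 and R 3.6.0. The aligner, the counter, the annotation and whether strand was used in counting are not given in the sources used here. The authors deposited a signal per gene and library, CPM of the effective library size, with replicates not pooled. Dividing each column by its smallest step returned whole reads (within 0.001) for 100% of values, and the scaling matched TMM factors. Of 16895 lines, 1 named no gene, held 0.00409% to 0.00699% of reads and was left out.

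Genes with at least 0.5 CPM in 3 libraries were tested with limma 3.58.1 (R 4.3.3) on log2(CPM + 0.5), two-sided, with a variance trend, all 6 libraries and Benjamini-Hochberg adjustment over all genes tested. The plan named CPM, the values are a scaled signal, and the test was kept. Log2 differences understate changes of low genes. Alternatives were other added constants, filters and scalings, leaving out each library, a replicate block, and edgeR 4.0.16 or DESeq2 1.42.0 on recovered reads. The statistics were tested on simulated data. The deviations of same-numbered libraries from their group means correlated at 0.54, 0.31 and 0.21. For unlike numbers the highest was 0.15, between control replicate 2 and senescent replicate 3. Deviations within a group cancel out, so high values for like numbers by themselves lower those for unlike numbers. Pairing by number is therefore possible but not established. The replicate block rests on the data alone, since no source names a shared batch. Every p-value and SE printed is from the fit without the block, fixed as the main fit, unless the block is named beside it. Libraries of a group differed by far more than sampling noise (chi-square per gene of 14.9 to 149).

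The members and gene lists were chosen with earlier results of these data known. The genes named were the members, per list first the 4 with the smallest p past the threshold and then others of the list, and per member the 2 with the highest r. A gene that this rule names is not reported here. Positions, exon lengths and transcripts came from GENCODE M21, which matched 6 of 6 members, and promoters from RefSeq, which matched 2. Coding sequences were aligned globally with Biopython 1.88.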

Additional observations from a re-analysis of the deposited data

How the results depend on the processing

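Ccl2, Ccl7, Ccl8, Ccl11 and Ccl9 kept the direction of their difference under every alternative run for them, and Ccl5 under those that gave it a value. The log2 difference of Ccl11 was 6.22 with an added constant of 0.1, and that of Ccl5 was 1.87 with 0.1 and 0.39 with 1. Leaving out 1 library at a time gave 5.10 to 5.99 for Ccl11 and 0.60 to 0.80 for Ccl5. With library totals as the only scaling the median log2 difference of all genes moved from -0.03 to 0.17, 4992 genes were higher and 1929 lower (72.1% of calls higher against 47.3%), and calls numbered 2 for other CC ligands, 11 for the NF-kB route and 7 for mRNA decay regulators. Without a filter 5 CC receptors were called, and with a filter at 2 CPM 0 receptors and 2 CXC, CX3C and XC ligands, where fewer genes were tested. Leaving out 1 library gave 2130 to 3405 higher genes over the whole table, the lowest without senescent replicate 2, 0 to 1 called other CC ligands, 2 to 8 for the NF-kB route, 4 to 7 for the IL-4 and IL-13 route, 1 to 9 for AP-1 and C/EBP and 11 to 18 for chemokine processing and retention. With the replicate block, the paired fit, the IL-4 and IL-13 route had 7 calls, and no member and no other list total moved by more than 1.5 times. No gene of the lists reversed its direction while past the threshold. Depth limits Ccl5, which held 3 reads in all control libraries together, and the causes of these changes were not tested unless fewer genes or libraries are named.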
